A study of Mus musculus with 6 samples.

Results

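Chromatin accessibility was described at 9 genes known from the intercalated cells of the kidney, which move acid and base. The genes are Foxi1, the anion exchanger genes Slc4a1, Slc26a4 and Slc4a9, the proton pump subunit genes Atp6v1b1, Atp6v0a4, Atp6v1g3 and Atp6v1b2, and the receptor gene Kit. The 9 genes were chosen by name, out of 21757 protein-coding genes, for their known place in these cells, with earlier results of these data known. For each gene the accessible intervals that overlapped the stretch from 3 kb upstream of the gene start to the gene end were taken, which gave 80 of the 279569 intervals in the deposited list.

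The data are ATAC-seq profiles, in which Tn5 transposase inserts sequencing adapters where chromatin is open, of nuclei from mouse kidney cortex. The libraries mapped from their labels are 3 from WT mice, which by the methods were Acly fl/fl littermates without Cre, and 3 from Acly cKO mice, in which Ksp-Cre (Cdh16-Cre) deleted Acly, the gene of ATP-citrate lyase, along proximal tubule, distal tubule and collecting duct. All 6 carry the treatment label Control, and the labels give no age. By its peak names the deposited list is a single call over all libraries pooled, so no value below has a replicate error, no test was made, the depth behind a value is unknown, and the genotypes were not compared. The study counts 2 more WT libraries from an earlier deposit, which may or may not be part of the pool, and the WT libraries come from batches 1 and 2 and the Acly cKO libraries from batches 4 and 5, so that batch and genotype cannot be told apart.

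Intercalated cells are scattered singly among the principal cells of the connecting tubule and collecting duct and set the acid-base balance of the body. Type A cells pump protons into the urine with a vacuolar H+-ATPase (V-ATPase) at the luminal face and return bicarbonate to the blood through the anion exchanger AE1, whereas type B cells secrete bicarbonate into the urine through pendrin. The transcription factor FOXI1 is required for this cell type and acts on several of the genes described here. In bulk tissue, few nuclei of a type and weak accessibility in each of them cannot be told apart, so a fold from intercalated cells is read beside those of more numerous cells.

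The list was read as follows. A summit is a local maximum of the signal inside an interval, the fold is the linear enrichment at a summit over the background estimated by the peak caller, and −log10 q is the significance the caller gave it. An interval is given by its highest summit. The lowest fold in the list was 1.70 and the median over all intervals was 2.55. A start-site summit is one within 1 kb of the start of a gene's canonical transcript, and the start-site fold is that of the highest such summit.

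The 9 genes spanned a wide range. Their strongest intervals ran from a fold of 4.65 at Foxi1 to 48.8 at Atp6v0a4, with a median of 14.0 against 24.3 over all protein-coding genes. A start-site summit was present at 8 of the 9 genes, beside 75.4% of protein-coding genes, and the gene without one was Slc4a1. The strongest interval reached a fold of 5 at 8 of the 9, beside 74.7% of protein-coding genes, and the start-site fold reached 5 at 6 of the 9, beside 64.3%. These shares are close to the background, and the account that follows therefore turns on where the accessible sites lie within each gene.

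**Figure D1:**
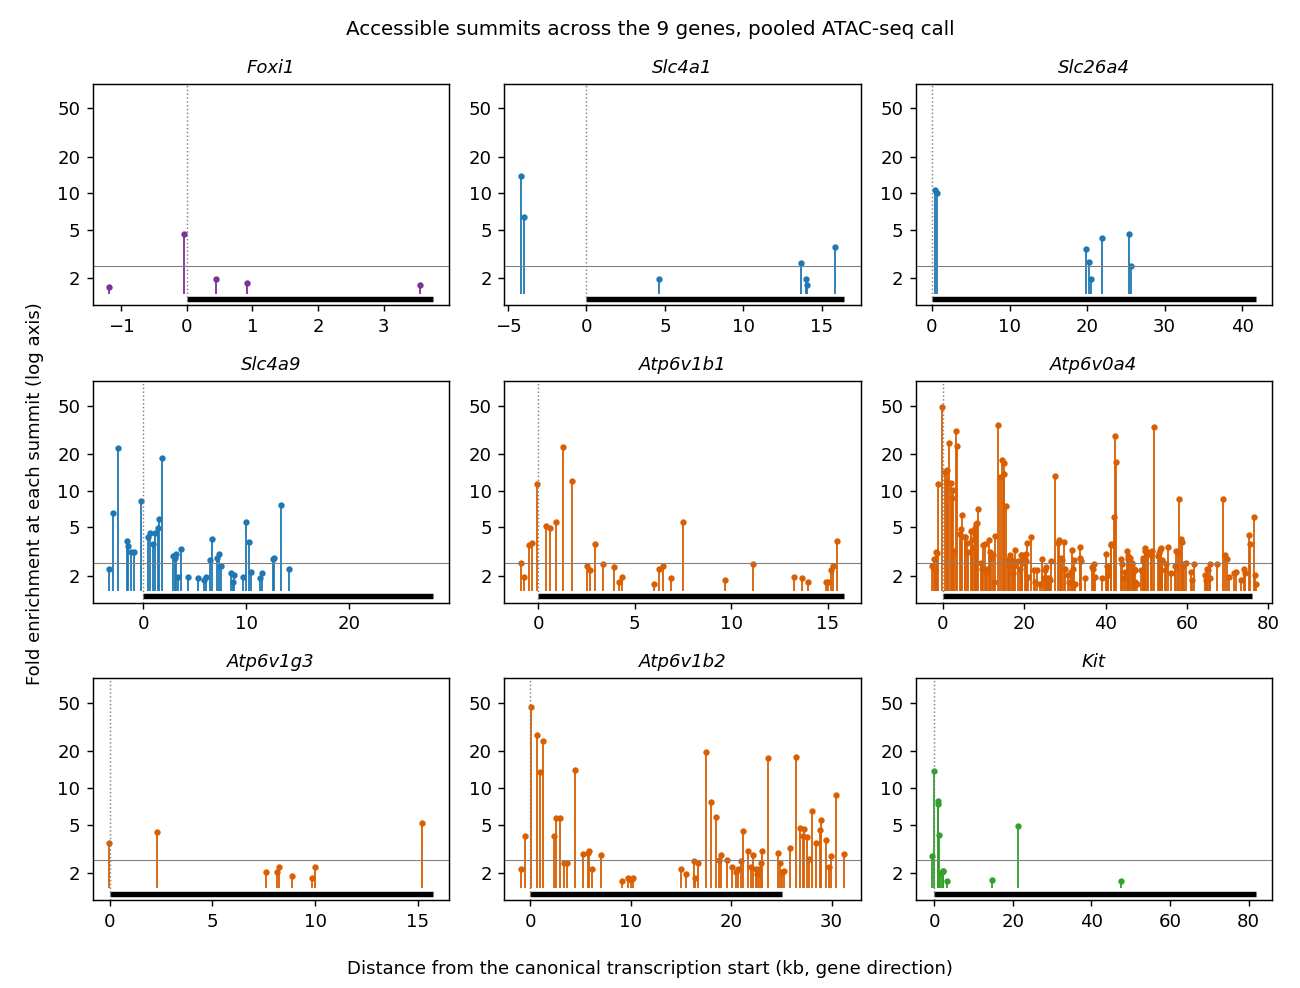
Summits at each of the 9 genes, plotted by distance from the canonical start in the direction of the gene (x axis, kb) and fold enrichment (y axis, log scale). The black bar is the gene, the dotted line the canonical start and the grey line the median fold of all intervals, 2.55; Atp6v0a4 carries 185 summits along its whole length, Foxi1 5, and Slc4a1 none at its canonical start.

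The regulator came first in this order of roles and last by its strongest interval. Foxi1 (ENSMUSG00000047861.3, GRCm39 chr11:34154338-34158089, minus strand) is a small gene of 3752 bp with 4 intervals. Its strongest, chr11:34157548-34158367, had a fold of 4.65 and a −log10 q of 24.3, with the summit 46 bp upstream of the start. The other intervals lay in intron 1 (fold 1.83), in the 3′ untranslated part of exon 2 (1.77) and 1186 bp upstream (1.70, the lowest value in the list). The start site of the gene was thus accessible, but its fold exceeded that of only 34.9% of all protein-coding genes, counting genes without a start-site summit as lowest. The 150 bases before its start are shown because they carry the only interval of the gene that stood clear of the floor of the call. CpG dinucleotides are in capitals, of which there are 3.
Foxi1 promoter, chr11:34158090-34158239, minus strand: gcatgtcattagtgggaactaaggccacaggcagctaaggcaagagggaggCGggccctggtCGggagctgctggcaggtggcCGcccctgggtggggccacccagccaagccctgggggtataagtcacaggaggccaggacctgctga

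The exchangers differed most in where they were open. Slc4a1 (ENSMUSG00000006574.17, chr11:102239650-102257029, minus strand) encodes AE1, the chloride-bicarbonate exchanger of red cells and of the basolateral face of type A cells. No summit lay within 1 kb of its canonical start, the start known from red cells. The canonical start was therefore not called as accessible in this tissue, although 4 intervals overlapped the gene region. The strongest, with a fold of 14.0 and a −log10 q of 164, only reached into the region, and its summit lay 4208 bp upstream of the canonical start. Inside the gene the folds were 3.60 in the 3′ untranslated part of exon 20, 2.68 in intron 17 and 1.96 in intron 3.

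The weak site in intron 3 of Slc4a1 is the one nearest to an alternative start. The kidney form of AE1 is known to be made from a shorter transcript that begins inside the gene and lacks the first part of the red cell protein. The interval chr11:102251352-102251686, with a fold of 1.96 and a −log10 q of 2.52, covered the annotated start at position 102251394 of a transcript of Slc4a1 without a defined coding sequence, 4712 bp downstream of the canonical start. It was among the weaker intervals, with 21.1% of all intervals below it. This interval held the letters TGTTTAC, the core bound by forkhead factors such as FOXI1, and so did the promoter of Atp6v1b1. The sequences are printed because the match ran well past the core, over a stretch of 16 bases of which 15 are identical. The stretch began 117 bp upstream of the internal start of Slc4a1 and 68 bp upstream of the start of Atp6v1b1, where its last base was a summit with a fold of 11.5. Capitals mark the identical bases of the stretch.
Slc4a1 intron 3, chr11:102251483-102251529, minus strand: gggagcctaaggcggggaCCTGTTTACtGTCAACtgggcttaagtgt
Atp6v1b1 promoter, chr6:83719881-83719927, plus strand: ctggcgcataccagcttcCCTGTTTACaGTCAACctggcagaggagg
This pair was noticed after the sequences had been seen, and it is a description of letters.

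Slc26a4 (ENSMUSG00000020651.10, chr12:31568169-31610244, minus strand) encodes pendrin, the luminal exchanger of type B cells that also serves the thyroid and the inner ear. It had 4 intervals over 42076 bp, and all of them lay above the median fold of all intervals. The start-site interval, chr12:31608650-31610066, had a fold of 10.7 with its summit 347 bp downstream of the start, in the 5′ untranslated part of exon 1, and a neighboring summit at 10.1. The remaining intervals sat together in the middle of the gene, between 19918 and 25364 bp from the start, with folds of 4.65 in intron 12, 4.32 in intron 9 and 3.47 in intron 8. The interval in intron 9 also held the start of the predicted gene Gm59672. The site in intron 12 contained the forkhead core, read here on the opposite strand and marked in capitals.
Slc26a4 intron 12, chr12:31584580-31584636, minus strand: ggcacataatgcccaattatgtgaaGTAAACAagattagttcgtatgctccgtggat

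The strongest exchanger was Slc4a9, which encodes AE4, an exchanger of the basolateral face found mainly in type B cells. It had 8 intervals, which covered 43.2% of its region. A single interval of 7459 bp with 20 summits spanned its start, and the profile within it rose at more than one place. The fold was 22.5 at a summit 2436 bp upstream of the start, 8.18 at a summit 206 bp upstream, and 18.7 at a summit 1817 bp downstream in exon 5. The start site itself thus stood at 36.3% of the fold of the strongest summit. Further downstream the folds were 7.66 in intron 21 and 5.50 in intron 17, while 4 of the 8 intervals lay below the median of all intervals.

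The V-ATPase is built from a cytoplasmic V1 part, which hydrolyzes ATP, and a V0 part in the membrane, through which protons pass. Several subunits exist as paralogues, and intercalated cells are known for B1, a4, G3, C2 and d2, while other forms are found in most cells. Of these other forms, B2 is also in the set described here. Start-site folds of the paralogues were set side by side. For the B subunit the fold was 11.5 at Atp6v1b1 (B1) and 46.2 at Atp6v1b2 (B2), a ratio of 4.03. For the C subunit it was 12.6 at Atp6v1c2 and 47.5 at Atp6v1c1, and for the d subunit 14.5 at Atp6v0d2 and 47.7 at Atp6v0d1. For the G subunit it was 3.54 at Atp6v1g3, 32.3 at Atp6v1g2, a form of neurons, and 49.8 at Atp6v1g1. In these 4 families the form found in intercalated cells had the lower fold, by ratios from 3.29 for d to 14.1 between the extremes of G. Outside them, the E subunit gave 4.19 at Atp6v1e2, a form of the testis, and 39.3 at Atp6v1e1, and the e subunit gave 23.0 at Atp6v0e2 and 25.6 at Atp6v0e.

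The a subunit ran the other way. The start-site fold was 48.8 at Atp6v0a4, above 30.4 at Atp6v0a1, 34.1 at Atp6v0a2 and 27.9 at Tcirg1, which encodes a3. The a4 form was thus the only one of the 5 subunits named for intercalated cells whose start-site fold exceeded those of its paralogues. By the strongest interval of the gene, Tcirg1 stood above Atp6v0a4, at 52.2, while Atp6v0a1 and Atp6v0a2 stood below it. Subunit a4 is known also from the proximal tubule, a far larger part of the cortex, and which nuclei gave the signal was not tested.

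**Figure D2:**
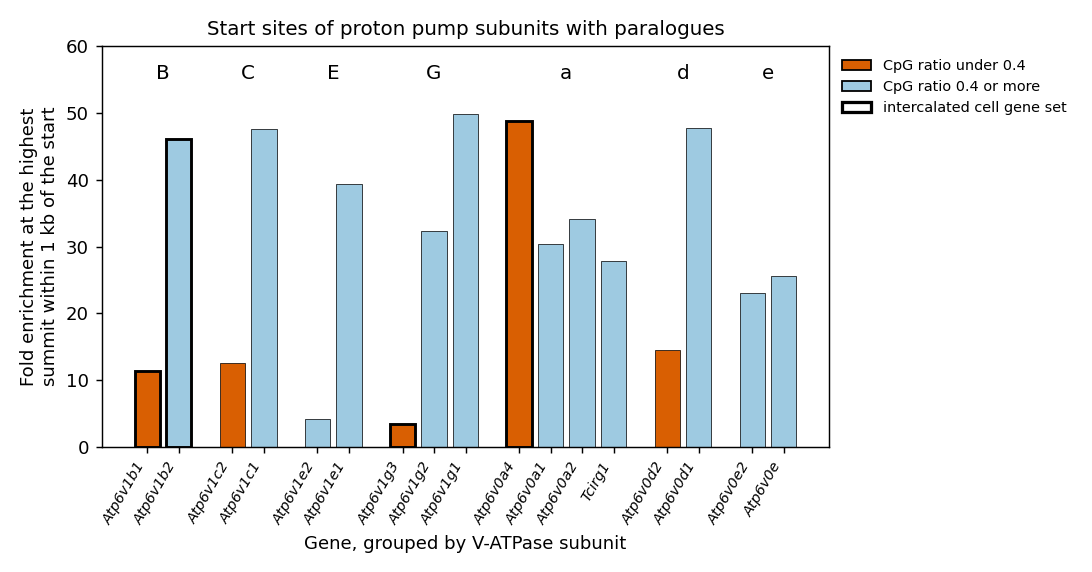
Start-site fold enrichment (y axis, linear) of V-ATPase subunit genes with paralogues (x axis, grouped by subunit). Orange bars have a CpG ratio under 0.4 in the promoter and blue bars a higher one, thick outlines mark genes of the set described here, and Atp6v0a4 at 48.8 is the single orange bar above 15.

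Atp6v1b1 (ENSMUSG00000006269.9, chr6:83719967-83735837, plus strand) encodes the B1 subunit, whose loss causes distal renal tubular acidosis with deafness. A single interval, chr6:83718951-83723560, spanned its start with 14 summits. The highest, with a fold of 22.7 and a −log10 q of 335, lay not at the start but in intron 1, 1287 bp downstream, and the summit 53 bp upstream of the start had a fold of 11.5. Because that intronic summit falls outside the window of 1 kb, the ratio of B2 to B1 became 2.03 when summits within 3 kb were allowed. Of the 8 other intervals, the one in intron 2 had a fold of 5.56 and the one over exon 14 a fold of 3.86, and the rest lay below the median of all intervals.

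Atp6v1b2 (ENSMUSG00000006273.16, chr8:69541297-69566369, plus strand) encodes B2, the form found in most cells. Its start-site interval, chr8:69540258-69543232, peaked 79 bp downstream of the start with a fold of 46.2 and a −log10 q of 892, and also held a start of Slc18a1, a transporter gene transcribed from nearby. Strong sites continued through the gene, with folds of 19.8 in intron 10 and 14.0 in intron 1, and an interval of 10945 bp at the gene end reached 18.1 at a summit beyond the last exon. The promoters of the B paralogues are printed because they are of different kinds. With CpG dinucleotides in capitals, the 150 bases before the start held 1 at Atp6v1b1 and 10 at Atp6v1b2.
Atp6v1b1 promoter, chr6:83719817-83719966, plus strand: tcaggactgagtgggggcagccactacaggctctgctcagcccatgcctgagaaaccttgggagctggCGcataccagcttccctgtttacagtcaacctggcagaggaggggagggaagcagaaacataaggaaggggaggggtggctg
Atp6v1b2 promoter, chr8:69541147-69541296, plus strand: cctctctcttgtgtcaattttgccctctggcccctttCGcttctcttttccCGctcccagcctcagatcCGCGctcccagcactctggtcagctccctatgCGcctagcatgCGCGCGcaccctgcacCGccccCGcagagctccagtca

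Atp6v0a4 (ENSMUSG00000038600.13, chr6:38025418-38101521, minus strand) encodes a4, through which protons cross the membrane in the pump of intercalated cells. It was open along much of its length. Its 29 intervals held 185 summits and covered 77.6% of the region. This share was higher than at 94.6% of the genes with a promoter CpG ratio under 0.4. It was not particular to Atp6v0a4, since Aqp1 and Slc34a1, in the same class, reached 90.2% and 86.4%. The median share was 39.0% over a list of proximal tubule genes and 52.5% over one of principal cell genes. The widest interval, 14727 bp with 41 summits, spanned the start and had its highest summit 63 bp upstream, with a fold of 48.8 and a −log10 q of 961. Inside it, further summits of 30.7 and 24.6 stood 3350 and 1595 bp downstream, in intron 1.

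Away from its start, Atp6v0a4 had 3 further sites that each exceeded the median strongest interval of protein-coding genes. They had folds of 34.5 in intron 1, 33.7 in intron 12 and 28.0 in intron 8, at 13576, 52009 and 42385 bp from the start, and a fold of 13.2 followed in intron 1. The site at 34.5 also held the start of a shorter protein-coding transcript of Atp6v0a4, 15037 bp downstream of the canonical start, and the start of Tmem213, another gene known from intercalated cells that lies inside Atp6v0a4, whose own start-site fold was 17.9. The start-site interval held the starts of the predicted genes Gm23231 and Gm68314, and an exon of D630045J12Rik covers the bases before the start. Because open chromatin has no strand, the share of each gene in these values cannot be told apart. Even here, 15 of the 29 intervals lay below the median of all intervals, so the gene combined a few strong sites with many weak ones. The forkhead core, in capitals, lay close to the summit of the intron 1 site, and a further copy lay under a weaker interval of the same intron.
Atp6v0a4 intron 1, chr6:38087957-38088013, minus strand: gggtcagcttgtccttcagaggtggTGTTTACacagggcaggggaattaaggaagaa
Atp6v0a4 intron 1, chr6:38079730-38079786, minus strand: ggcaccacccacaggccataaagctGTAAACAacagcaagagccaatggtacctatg

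Atp6v1g3 (ENSMUSG00000026394.7, chr1:138201461-138217200, plus strand) encodes G3, a subunit of the pump's stalk that is found mainly in kidney. Its 6 intervals were weak and spread over the gene, with the strongest at the far end. The folds were 5.17 in the 3′ untranslated part of exon 3, 15223 bp from the start, 4.39 in intron 1, and 3.54 at the start itself with the summit 31 bp upstream. The start site thus came after other sites of its own gene, at 68.4% of the strongest, and had the lowest fold among the members that had a start-site summit. Its promoter is printed beside those of the B subunits as another that is nearly free of CpG, with 1 in 150 bases.
Atp6v1g3 promoter, chr1:138201311-138201460, plus strand: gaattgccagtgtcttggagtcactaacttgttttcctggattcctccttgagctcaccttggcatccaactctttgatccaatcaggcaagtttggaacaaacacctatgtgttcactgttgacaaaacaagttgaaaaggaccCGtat

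Kit (ENSMUSG00000005672.14, chr5:75735576-75817404, plus strand) encodes the receptor tyrosine kinase for stem cell factor, known from mast cells and melanocytes and also found in intercalated cells. The gene is the longest of the set, 81829 bp, and the least covered, with 4.59% of its region in intervals. The interval at the start, chr5:75734948-75737157, had a fold of 13.7 at a summit 23 bp downstream of the start and further summits of 7.33 and 7.86 about 1 kb into the gene. In intron 1 a fold of 4.84 was found 21418 bp downstream, and the other 4 intervals did not exceed 2.10. Kit was thus open at its start and little elsewhere. Its promoter is printed because, outside the V-ATPase genes, it had the highest CpG ratio of the set, with 9 CpG in 150 bases.
Kit promoter, chr5:75735426-75735575, plus strand: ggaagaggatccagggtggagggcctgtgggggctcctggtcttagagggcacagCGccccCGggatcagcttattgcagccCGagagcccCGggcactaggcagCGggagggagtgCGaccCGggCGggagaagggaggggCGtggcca

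Over all 9 genes, the 80 intervals resembled the list as a whole in strength. Their median fold was 2.52 against 2.55 over all intervals, and 21 of them (26.2%) reached a fold of 5, beside 24.5% of all intervals. They were wider, with a median of 622.5 bp against 434 bp. The highest summit lay in an intron in 59 intervals, in a coding exon in 7, in an untranslated part of an exon in 6, upstream of the gene in 6 and downstream in 2. The rule that chose the intervals takes mainly sites inside genes, and no such split over all genes is given here. Atp6v0a4 alone supplied 29 of the 80, and without it 13 of the remaining 51 intervals (25.5%) reached a fold of 5 and the median was 2.55.

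**Figure D3:**
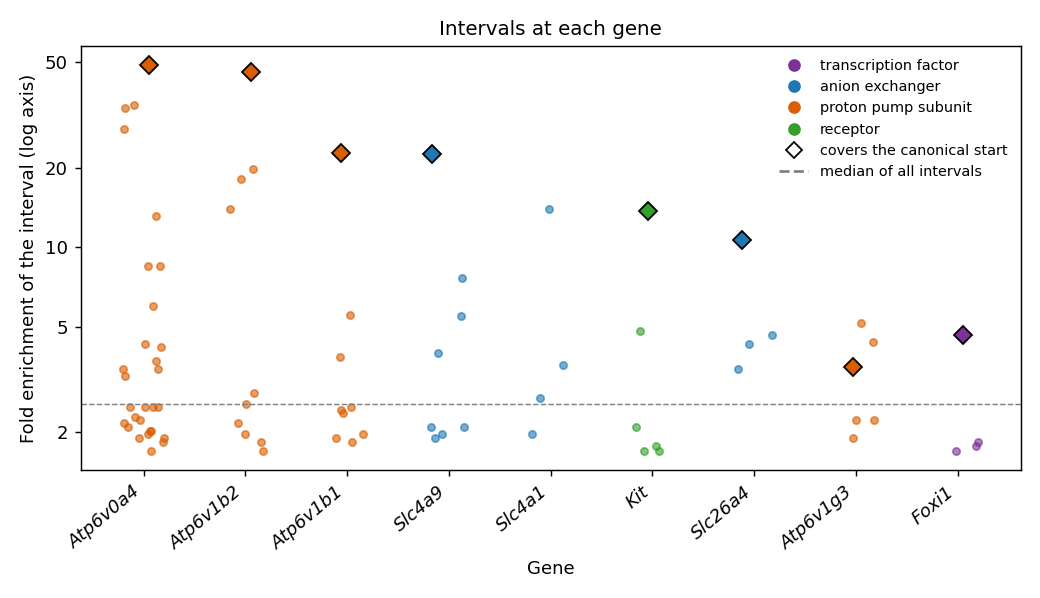
Fold enrichment (y axis, log scale) of every interval at each gene (x axis, ordered by the strongest interval). Diamonds cover the canonical start, circles do not, colors give the role and the dashed line is the median of all intervals; at Atp6v1g3 2 circles lie above the diamond, and Slc4a1 has no diamond.

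Most members had promoters poor in CpG. CpG-rich promoters are known to be open in most cells, whereas promoters poor in CpG are often open in few. The CpG ratio, the observed number of CpG over that expected from the base composition, was computed in the 250 bases before the canonical start. It was under 0.4 at 7 of the 9 members, from 0.0513 at Slc4a1 to 0.337 at Slc26a4, and 44.2% of all protein-coding genes fell in that class. The exceptions were Atp6v1b2, at 0.836, and Kit, at 0.598. A low ratio was not particular to these genes, since it was also found at 10 of 12 proximal tubule genes and 7 of 12 principal cell genes, and at 8 of 21 other genes known from intercalated cells. The class depends on the bases chosen. At Slc26a4 the start-site summit lay 347 bp downstream of the start, outside these bases, and the ratio in the 200 bp around it was 0.643.

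Accessibility followed the CpG ratio over the genome. A start-site summit was found at 50.3% of the 9623 genes with a ratio under 0.4, at 89.7% of the 3686 genes between 0.4 and 0.6, and at 97.8% of the 8448 genes at 0.6 or more. The median start-site fold among those called was 8.51, 27.4 and 39.0 in the same order. Among the 7 CpG-poor members 6 had a start-site summit, beside the 50.3% of their class, and their folds were read against the genes of that class that had a start-site summit. Atp6v0a4 exceeded 94.3% of these, Atp6v1b1 56.6% and Slc26a4 54.7%. Slc4a9, at 48.8%, Foxi1, at 33.9%, and Atp6v1g3, at 26.4%, lay below the median of these called genes. With genes without a start-site summit counted as lowest, they exceeded 74.2%, 66.7% and 63.0% of the class, in the same order. Among the called genes of their own classes, Atp6v1b2 exceeded 61.9% and Kit 26.5%. The class limits were set after the data had been seen.

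**Figure D4:**
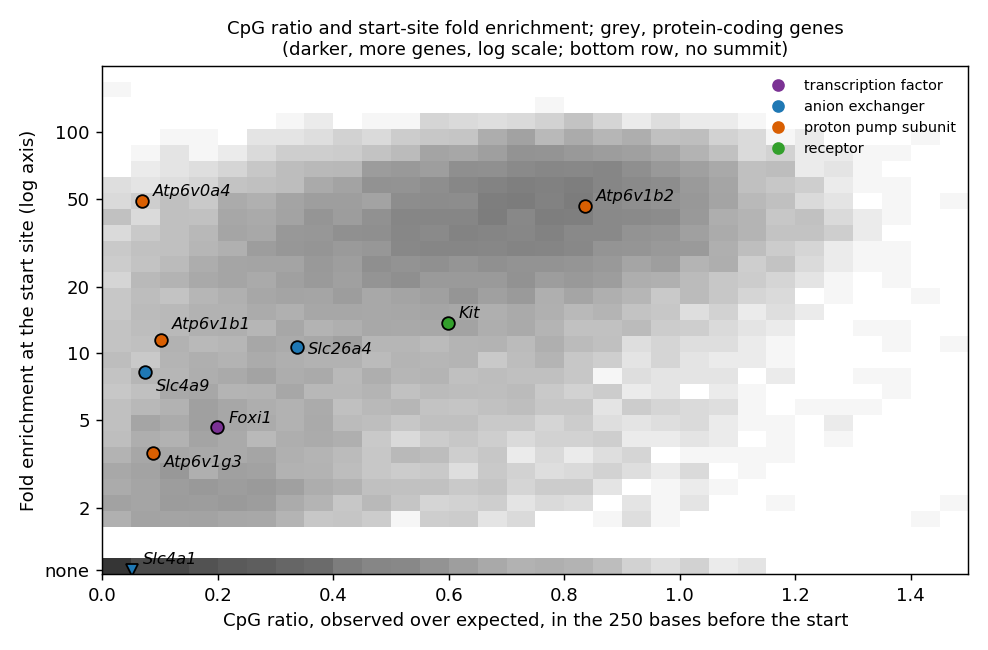
CpG ratio in the 250 bases before the start (x axis) and start-site fold enrichment (y axis, log scale, genes without a start-site summit in the bottom row). Grey tiles are protein-coding genes, darker for more genes, and points are the members; 7 of the 9 lie left of 0.4, with Atp6v0a4 at 48.8 far above the others there.

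Short motifs were then counted in windows of 200 bp centered on the highest summit of every interval, on both strands and with no mismatch. The forkhead core TGTTTAC was found in 5 of the 80 windows (6.25%), at Atp6v0a4, Kit, Slc26a4 and Slc4a1, against 2.80% of all intervals. The difference rests on few windows and depended on the window. With 500 bp it was 7.50% against 6.96%, and with the 200 bp around each of the 367 summits 3.00% against 2.60%. In the 250 bases before the start, the core occurred at Slc4a9 and Atp6v1b1, against 2.72% of the 21757 promoters.

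Of the other motifs, the pattern CCNGNNNNNNCCNG is a simplified form of the sites of the CP2 family. The intercalated cell factor TFCP2L1 belongs to this family. The pattern was found in 11 windows (13.8%) against 15.7% of all intervals, and in 25 windows of 500 bp (31.2%) against 28.5%. It was also found in 5 of the 9 promoters against 25.0% of all promoters. The E-box core CACGTG was found in 5 windows (6.25%) against 3.85%, but around every summit the share was 3.27% against 3.58%. The longer palindrome TCACGTGA, which contains it and is bound by TFEB at lysosomal genes, was found in none against 0.278%, and in 1 window of 500 bp (1.25%) against 0.517%. TATAAA was found in 4 windows (5.00%) against 6.81%, and in the promoters of Slc26a4 and Slc4a9 against 11.9% of all promoters. A match describes letters and not a bound site.

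Start sites of other gene lists give the scale on which the members sit. Among 21 other V-ATPase subunit and accessory genes, all had a start-site summit, with a median fold of 39.3 and a range from 4.19 at Atp6v1e2 to 67.6 at Atp6v1d, which encodes the central shaft. Among 21 other genes known from intercalated cells, 20 had one, with a median of 11.3, from 3.01 at Aqp6, an intracellular water channel of type A cells, to 57.4 at Jag1, a Notch ligand, and the exception was Adgrf5. The median of the 9 members, with Slc4a1 counted as lowest, was 10.7 and thus close to that of the other intercalated cell genes.

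By start-site fold, genes of neighboring cells were of the same order. All 12 principal cell genes had a start-site summit, with a median of 12.1, from 4.19 at Aqp2, the vasopressin-regulated water channel, to 28.4 at Scnn1g, a subunit of the epithelial sodium channel. Of 12 proximal tubule genes 11 had one, with a median of 13.9, from 5.30 at Slc22a6, an organic anion transporter, to 35.1 at Aqp1, and Slc22a8 had none. By the strongest interval the members were lower, with a median of 14.0. It was 16.9 over the principal cell genes, 27.4 over the proximal tubule genes and 18.9 over the other intercalated cell genes.

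Lists for the other cells in which some members are used differed among themselves. Of 7 erythroid genes 1 had a start-site summit, Klf1 at 2.82, and no interval overlapped Hbb-bt, Hba-a1 or Gata1, while the strongest interval had a fold of 41.0 at Klf1 and 13.9 at Epb42. The globin genes have near-identical copies whose reads a filter on unique mapping can remove. Of 8 mast cell and melanocyte genes 3 had one, Mitf at 52.1, Dct at 2.49 and Tpsb2 at 1.90, and none overlapped Mcpt4, Fcer1a, Ms4a2 or Tyr. Of 8 inner ear and thyroid genes 4 had one, Pax8 at 43.9, Tshr at 28.3, Foxe1 at 5.17 and Otog at 2.42. The strongest interval of this list reached a fold of 5 at 7 of the 8 genes, with a median of 13.5 against 14.0 for the members, and Pax8 is also a gene of kidney tubules. A CpG ratio under 0.4 was found at 6 of the 7 erythroid genes. In each of the other lists of this paragraph it was found at 7 of the 8 genes. Of all protein-coding genes with such a ratio, 50.3% had a start-site summit. The part of erythroid, mast, melanocyte, inner ear and thyroid cells in the values of Slc4a1, Kit and Slc26a4 was not tested.

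**Figure D5:**
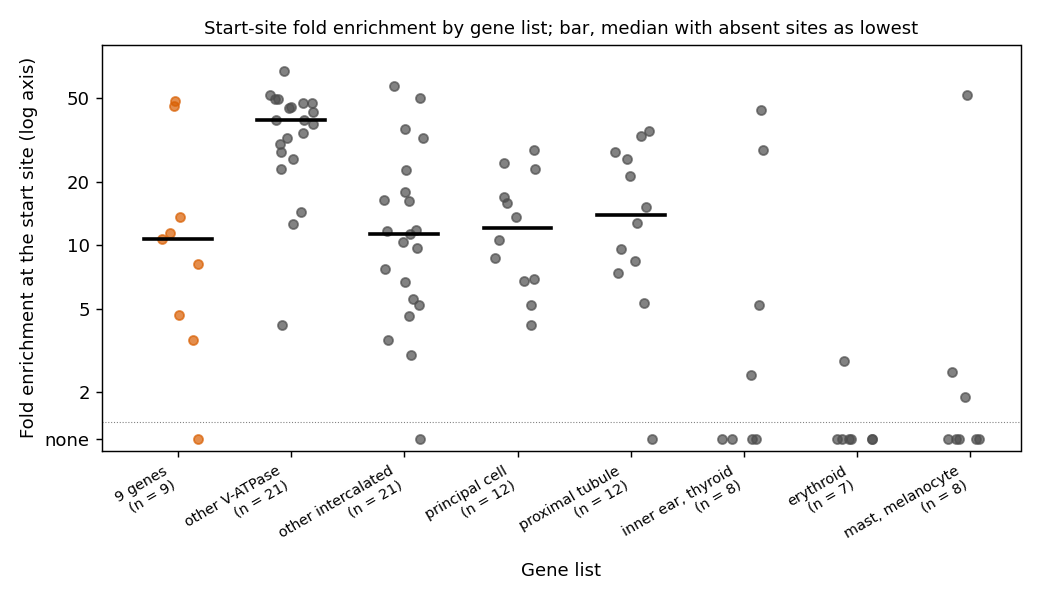
Start-site fold enrichment (y axis, log scale) of the genes in each list (x axis, with the number of genes). Each point is a gene, genes without a start-site summit are in the bottom row, and bars give the median with these counted as lowest; the members' median of 10.7 is near those of the other intercalated, principal cell and proximal tubule lists and below the 39.3 of the other V-ATPase genes.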

How the data were processed

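Reads had been trimmed (fastp) and mapped to mm39 (Bowtie2 2.3.4.3) by the authors, who removed duplicates and reads without a unique position, called peaks with MACS3 3.0.0 and removed blacklisted regions with BEDTools 2.29.1 (methods and processing notes). The deposited list gives, per summit, the fold enrichment, a linear ratio, and the −log10 q, both as the authors' caller wrote them, and another deposited column gives the offset of the summit. The notes print the caller's shift without a sign, which would move summits if it was used so. The depth of single libraries is not given in the sources used here. Rows were grouped into distinct intervals and placed on GENCODE M39 (GRCm39); coordinates count from 1. No test was made, since a pooled call has no replicates. Protein sequences were not used here.

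The genes named are the members, the strongest and weakest start site of each list, the V-ATPase paralogues and genes whose start lies under a member interval; other list genes named were chosen after their values were seen. Members and lists were chosen with earlier results of these data known. From the erythroid list 1 gene is not reported here. Counts without Atp6v0a4 were added after the data had been seen. Scripts (Python 3.11.15, pandas 2.3.3, numpy 2.4.6, pysam 0.24.0) were tested on simulated data and recovered 15 of 15 annotation cases and 1000 of 1000 planted motifs. Alternatives covered q, fold, region, window and summit choice.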

Additional observations from a re-analysis of the deposited data

How the results depend on the processing

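No paired analysis was possible because the deposited call is pooled and no column belongs to a library, and for the same reason no library could be left out. The number of intervals at the 9 genes, 80, became 46 at a q under 1e-05, 21 at a fold of at least 5, 127 with 10 kb on either side of each gene, and 367 when summits were counted. The median strongest fold, 14.0, became 13.7 with the highest summit required inside the region, 17.1 with 10 kb on either side and 13.8 without Atp6v1b2. The ratio of B2 to B1 at the start site, 4.03, became 2.03 within 3 kb and 7.44 on −log10 q. The number of members with a start-site summit, 8, was 7 within 250 bp, where Slc26a4 was lost, and 9 when the start of any transcript was allowed, where Slc4a1 was gained. The number with a fold of at least 5, 8, was 7 when the summit had to lie inside the region and 7 at a fold of at least 10. B2 stayed above B1 under each alternative. Within 250 bp the ratio was unchanged, and −log10 q could not reverse the order, since it never falls as the fold rises. The counts and the median have no direction, and under the alternatives they are given for the members alone, without the values over all protein-coding genes. For some motifs the share of windows changed side against that of all intervals. The E-box core fell from above it (6.25% against 3.85%) to below it around every summit (3.27% against 3.58%). With 500 bp the CP2 pattern rose from below (13.8% against 15.7%) to above (31.2% against 28.5%), as did the palindrome TCACGTGA (0% against 0.278%, then 1.25% against 0.517%). A site missing from the list was not called at the depth of the pool, which is not known.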

Other observations

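The 16 letters CCTGTTTACNGTCAAC, in which N stands for the base that differs between the Slc4a1 and Atp6v1b1 sites, were searched on both strands of 21 chromosomes of GRCm39 after that pair had been seen. They occurred 6 times. Of these, 5 lay inside accessible intervals, which cover 9.47% of the assembled bases, but the 5 include both sites the letters were taken from. How many copies to expect by chance was not computed. Besides the intron 3 site of Slc4a1 and the promoter of Atp6v1b1, a copy lay 3263 bp from the start of Atp6v1e1, which encodes a further V-ATPase subunit, 42 bp from a summit with a fold of 14.6. The remaining copies inside intervals lay nearest to Kcns3, a potassium channel subunit gene, at a fold of 3.14, and to Rbpms, an RNA-binding protein gene, at 3.08. The copy outside any interval lay nearest to Rims2. Because the letters were taken from accessible sites at Slc4a1 and Atp6v1b1, the copies there are no independent observation.

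In the 50 kb on either side of the gene regions, 7 of the 9 members had a stronger interval than within the region, beside 58.2% of protein-coding genes. At 4 of them, Slc4a1, Slc26a4, Slc4a9 and Atp6v1b1, that interval peaked within 1 kb of the start of another protein-coding gene. At the other 3 the member's own was the nearest protein-coding start. Foxi1 had 19 further intervals, and the strongest, chr11:34131302-34132446, had a fold of 10.9 at 26122 bp downstream of its start, against 4.65 at the start. Atp6v1g3 had 18, and the strongest, chr1:138175677-138177203, had a fold of 30.1 at 24779 bp upstream, against 5.17 within the gene. Near Kit 6 further intervals were found, with the strongest, a fold of 18.0, at 101313 bp downstream of its start. Which gene such sites act on is not known from accessibility.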
